A study of Arabidopsis thaliana with 27 samples.

Results

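A set of 10 named genes for nucleolar proteins that make ribosomes were followed through short moves of Arabidopsis thaliana seedlings to a higher temperature. They were NUC1 (AT1G48920), NUC2 (AT3G18610), FIB1 (AT5G52470), FIB2 (AT4G25630), NOP56 (AT1G56110), NOP56-like (AT3G12860), both NOP58 genes (AT5G27120 and AT3G05060), CBF5 (AT3G57150) and PUM23 (AT1G72320). They were picked by identity, with earlier results of these data known, and they are 10 of the 33557 genes counted per library. All 10 passed the filter on low counts in each tested comparison. Whole seedlings of the Col-0 accession were sampled in 27 RNA-seq libraries. In 1 experiment, plants raised at 17 °C were kept there or moved to 27 °C, with 2 libraries per temperature at 15 min, 1 h and 4 h and 1 library at 0 min. Another moved plants from 17 °C to 37 °C and the remaining one moved plants from 22 °C to 27 °C, each with 1 library per temperature and time and 1 at 0 min. Seedlings were grown for 10 days in long days and moved 1 h after dawn, per the labels. All groups share this wild-type accession and no group carries a mutation or transgene. The labels' growth text does not describe the plants raised at 22 °C, and each library comes from the ground tissue of many cell types.

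Ribosomal RNA is transcribed by RNA polymerase I in the nucleolus, where it is modified, cut and joined to ribosomal proteins. Fibrillarin, NOP56 and NOP58 form the core of box C/D particles, which add methyl groups to the RNA, and CBF5 is the pseudouridine synthase of box H/ACA particles. Nucleolins (NUC1, NUC2) act on ribosomal DNA chromatin and on the first cleavage of the transcript, and PUM23 is a Pumilio-domain protein of rRNA processing. In plants, many promoters of ribosome-related genes hold the telo-box and site II motifs.

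Promoter windows were read from the TAIR10.1 assembly of RefSeq, from 250 bases before to 50 bases after each annotated start, to see what the genes share in sequence. The telo-box core AACCCTA, on either strand, stood in 9 of 10 windows, against 8.83% of the 27443 protein-coding genes. A site II element (TGGGCC or TGGGCT, either strand) stood in 8 of 10, against 21.7% of all. Both motifs stood together in 7 of 10, against 2.88% of all. Of 75 other listed genes with a window, 33.3% held the telo-box core and 54.7% a site II element. They are the ribosome biogenesis lists named below, together with those of RNA decay, nucleolar chromatin and TOR signalling. FIB2 and NUC2 had no site II match and PUM23 no telo-box match in these windows. A match is a string of letters and not evidence of binding. The windows of both fibrillarin genes are shown because this pair separates in the results below, that of NOP56 because it is rich in both motifs, and that of PUM23 because it holds site II elements alone. Capitals mark the motifs.
FIB1, chr5:21293897-21294196, plus strand, TAIR10.1: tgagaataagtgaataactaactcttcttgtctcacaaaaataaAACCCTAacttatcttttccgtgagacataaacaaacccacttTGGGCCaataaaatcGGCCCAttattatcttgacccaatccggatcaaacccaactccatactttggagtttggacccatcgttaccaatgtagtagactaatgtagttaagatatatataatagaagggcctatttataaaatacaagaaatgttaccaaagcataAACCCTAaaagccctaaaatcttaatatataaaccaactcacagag
FIB2, chr4:13073840-13074139, plus strand, TAIR10.1: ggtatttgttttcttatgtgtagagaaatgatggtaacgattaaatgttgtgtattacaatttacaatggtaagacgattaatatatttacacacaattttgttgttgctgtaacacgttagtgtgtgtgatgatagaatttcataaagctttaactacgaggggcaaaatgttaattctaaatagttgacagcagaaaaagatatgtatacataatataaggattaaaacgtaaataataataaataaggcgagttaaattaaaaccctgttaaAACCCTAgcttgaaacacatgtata
NOP56, chr1:20986903-20987202, minus strand, TAIR10.1: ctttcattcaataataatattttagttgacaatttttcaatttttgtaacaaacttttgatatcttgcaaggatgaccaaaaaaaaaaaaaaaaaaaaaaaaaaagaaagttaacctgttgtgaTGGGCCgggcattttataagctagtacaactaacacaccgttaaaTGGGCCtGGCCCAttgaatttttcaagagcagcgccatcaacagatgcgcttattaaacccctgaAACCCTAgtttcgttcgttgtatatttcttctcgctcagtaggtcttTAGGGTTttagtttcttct
PUM23, chr1:27233118-27233417, minus strand, TAIR10.1: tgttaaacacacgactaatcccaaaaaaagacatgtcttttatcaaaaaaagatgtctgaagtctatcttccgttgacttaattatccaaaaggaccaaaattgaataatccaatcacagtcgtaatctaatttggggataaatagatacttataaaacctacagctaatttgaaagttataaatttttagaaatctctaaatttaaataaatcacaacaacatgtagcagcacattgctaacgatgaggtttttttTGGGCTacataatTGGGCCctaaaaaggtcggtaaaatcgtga
Counted from the RefSeq start as base 1, the telo-box core of FIB1 began at base 5 and another at base -206, and its site II elements began at -163 and -148. The only motif of FIB2 was a telo-box core at base 26. NOP56 had telo-box cores at -16 and 32 and site II elements at -126, -81 and -74. PUM23 had site II elements at 8 and 21. Starts in the files and in RefSeq differ for many genes: the lower coordinate is equal for 44.7% of genes, and FIB2 starts at 13074133 in the files and at 13074090 in RefSeq, so these positions hold for the RefSeq starts.

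**Figure D1:**
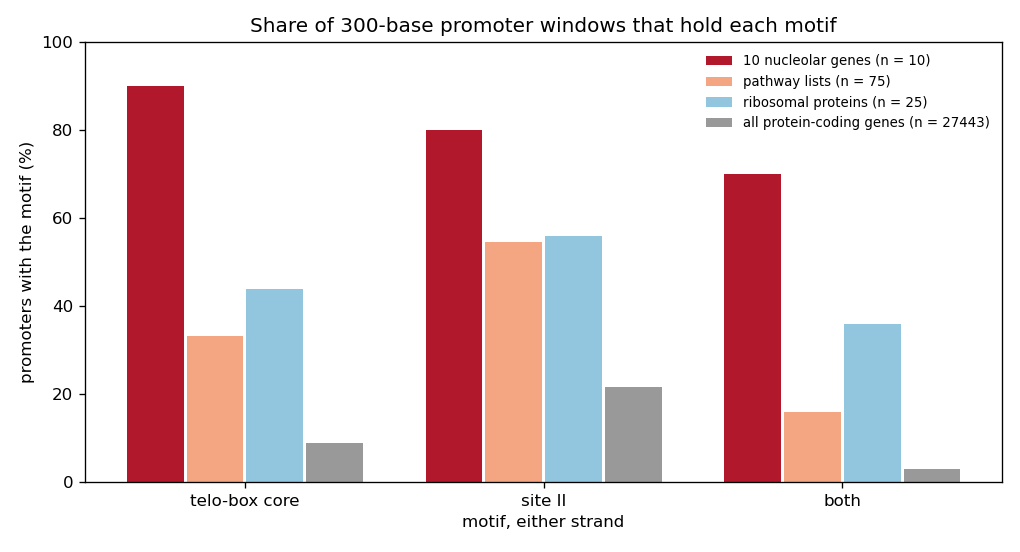
Share of 300-base promoter windows (y axis, percent) that hold the telo-box core, a site II element or both (x axis), for the 10 nucleolar genes, 75 other listed genes, 25 genes described as ribosomal proteins and all protein-coding genes. The telo-box core stood in 90.0% of the nucleolar genes and in 8.83% of all genes.

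Library totals ran from 5790129 to 30741125 counts, with the 22 °C experiment the shallowest (5790129 to 10694410). Chloroplast genes took 0.202% to 1.54% of counts in 25 libraries, but 5.43% and 6.45% in the 17 °C and 27 °C libraries of replicate 1 at 1 h. The 3 heat check genes rose over 3 times at 27 °C (HSP70-4 by 4.68 ± 0.44, HSP101 by 4.06 ± 0.71 and HSFA2 by 5.80 ± 0.89, log2 ± SE, edgeR adjusted p = 0.00233, 0.029 and 0.0189). They rose at 37 °C too, by 6.97, 8.02 and 8.98. Shoot marker genes summed to 10292 to 22589 TPM and root markers to 94.9 to 218 TPM, so both organs were in every library. In such mixed tissue, fewer cells of a type and less RNA per cell cannot be told apart. TPM is a per-length level that sums to the same total in each library. Nothing in the labels says that duplicates came from separate cultures, so p-values measure the spread between these libraries, which may be technical. In the 37 °C and 22 °C experiments the tests over 3 times took the times as replicates of the shift. Their spread thus includes any change of the effect with time.

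At 17 °C the genes covered a wide range of levels in TPM. In the 7 unshifted libraries of the 17 to 27 °C experiment, NUC1, the major nucleolin, was the highest at 209 ± 24.9 TPM (SD, n = 7). FIB1 stood at 175 ± 18.3, NOP56 at 139 ± 20.8, FIB2 at 105 ± 16.2 and CBF5 at 88.7 ± 16.8 TPM. The NOP58 genes stood at 77.4 ± 13.5 (AT3G05060) and 73.6 ± 7.32 TPM (AT5G27120), a difference within 1 SD of either. PUM23 stood at 27.5 ± 3.88 TPM and NOP56-like at 11.4 ± 2.02 TPM. NUC2, the second nucleolin, stood at 0.610 ± 0.197 TPM, with 4 to 62 counts over all 27 libraries. In each of the nucleolin, NOP56 and fibrillarin pairs, 1 paralogue was thus the higher by more than the spread. Over all 27 libraries FIB1 was the steadiest, with a highest value 1.65 times its lowest, whereas FIB2 spanned 5.50-fold. NUC2 spanned 35.9-fold, a span that rests on 1 library with 4 counts, and 6.58-fold without it.

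**Figure D2:**
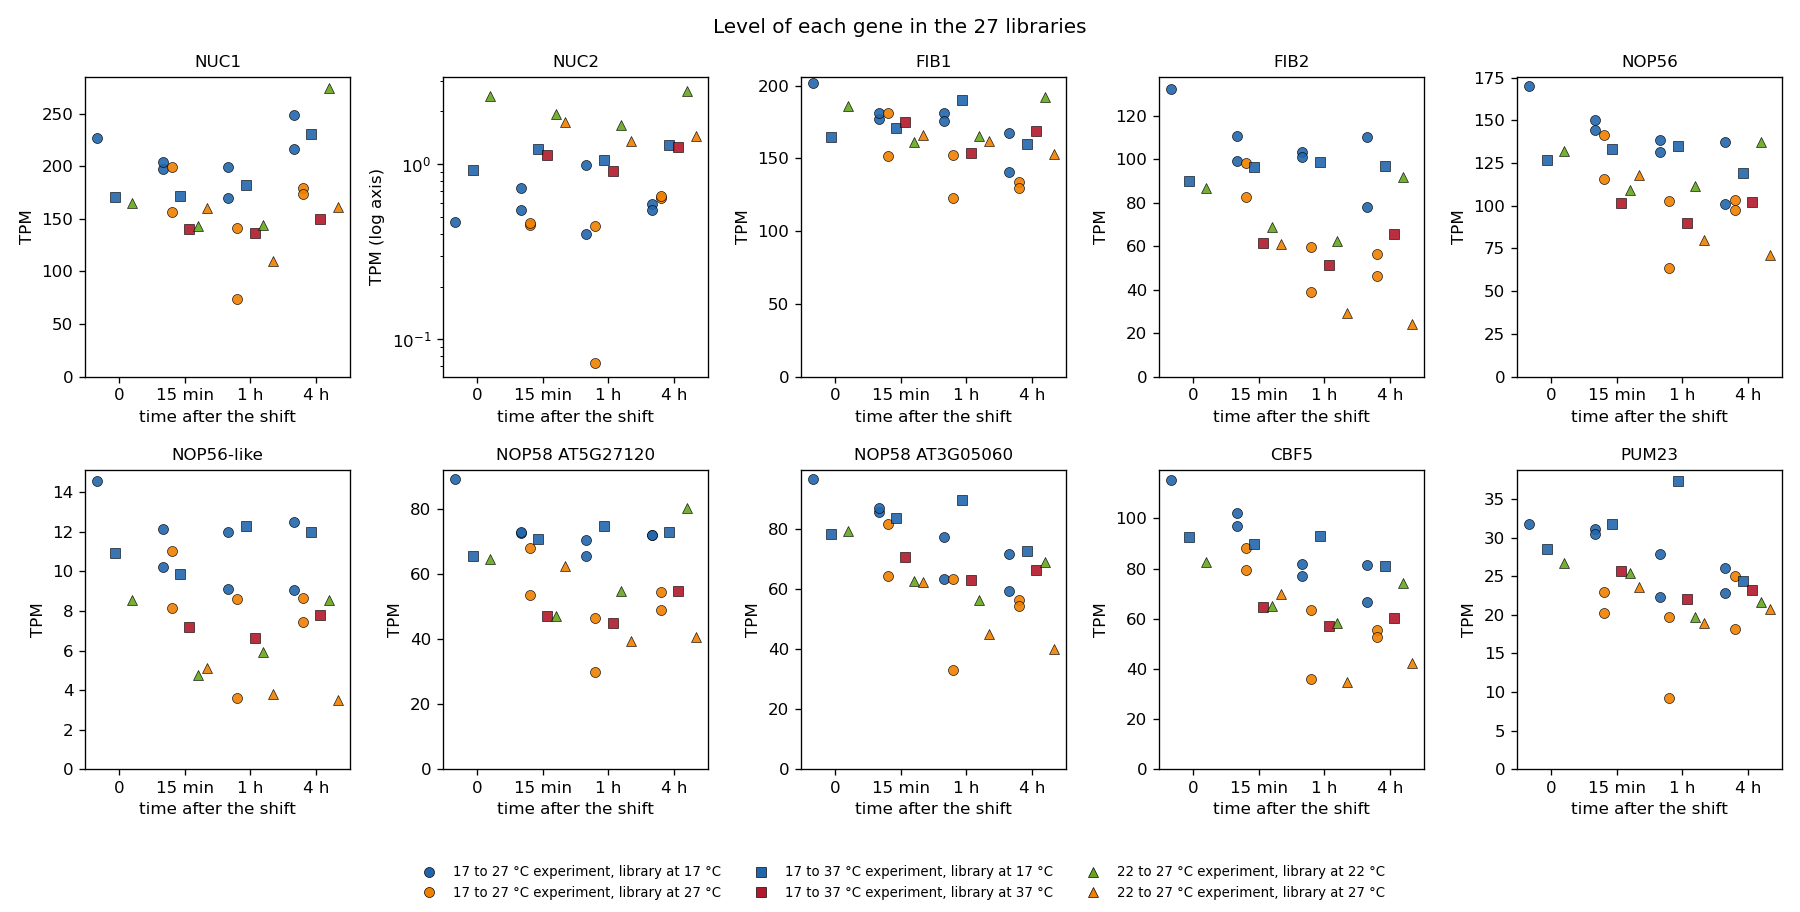
Level in TPM (y axis, a log axis for NUC2 alone) of each of the 10 genes by time after the shift (x axis), 1 point per library, with colour for temperature and marker shape for experiment. FIB1 stays between 123 and 202 TPM in all 27 libraries, while FIB2 goes from 132 down to 24.1 TPM.

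Moved from 17 °C to 27 °C, all 10 genes had a negative log2 fold change over the 3 times, and none passed the test. The median of the 10 was -0.38, against -0.01 for all genes tested, of which 51.4% were negative. With edgeR's quasi-likelihood test, 0 of 10 had an adjusted p under 0.05 (1.51% of all genes did), 8 had an unadjusted p under 0.05 (18.2% of all genes did), and DESeq2 called 4 (5.67% of all genes). The genes DESeq2 called were FIB2, NOP58 AT5G27120, CBF5 and PUM23, all lower. The direction held for all members under each scaling and tool that gave them a value.

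FIB2 (chromosome 4, from 13074133 to 13076429, TAIR10 as in the files), 1 of the fibrillarin methyltransferases, had the log2 fold change furthest from 0 among the 10. At 15 min its level was 98.9 and 111 TPM in the 17 °C libraries of replicates 1 and 2, and 82.5 and 98.0 TPM at 27 °C. At 1 h it was 103 and 101 TPM at 17 °C, and 38.7 and 59.4 TPM at 27 °C. At 4 h it was 78.2 and 110 TPM at 17 °C, and 46.1 and 56.6 TPM at 27 °C. The 27 °C libraries were all below the 17 °C ones at each time, as for 3.6% of genes with a mean count of at least 10. At 15 min alone this held for 47.4% of such genes. Over 3 times the log2 fold change was -0.62 ± 0.17 (SE, from 6 libraries at each temperature, with an adjusted p of 0.0885 in edgeR). It was -0.01 ± 0.20 at 15 min, -0.88 ± 0.20 at 1 h (edgeR adjusted p = 0.0818) and -0.97 ± 0.21 at 4 h (edgeR adjusted p = 0.156; n = 2 per temperature). The change between 15 min and 4 h was -0.96 ± 0.29 (edgeR adjusted p = 0.563), and no gene passed this edgeR test (0% of all genes). DESeq2 called 129 genes there and none of the 10, of which 3 had an unadjusted edgeR p under 0.05 (7.59% of all genes). The replicate numbers pair the libraries, and in a fit with the pairing as a replicate block within each time FIB2 was lower at 1 h (-0.87, edgeR adjusted p = 0.00997) and at 4 h (-0.98, edgeR adjusted p = 0.0175). Without the 15 min libraries FIB2 was lower by test (-0.92, edgeR adjusted p = 0.0336). For these fits the share of all genes called was not set beside the calls of FIB2. Over all 26 alternatives its value ran from -0.92 to -0.44, with adjusted p from 0.0177 to 0.683.

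FIB1 (chromosome 5, from 21294187 to 21296704), which encodes the same kind of methyltransferase, moved little. Its level at 27 °C was 152 and 181 TPM at 15 min, 123 and 153 TPM at 1 h and 134 and 130 TPM at 4 h, against 177 and 181, 181 and 176, and 141 and 168 TPM at 17 °C. The values overlapped at 15 min, and both 27 °C libraries lay below both controls at 1 h and 4 h. Its log2 fold change over 3 times was -0.13 ± 0.11 (edgeR adjusted p = 0.559). Each fibrillarin gene holds a snoRNA gene with its own row, which had at most 26 counts in a library, while the fibrillarin genes had at least 158. The transcripts of the pair share no identical stretch over 44 bases, and reads were 100 bases long.

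The balance between both fibrillarin genes shifted towards FIB1 at 27 °C. The ratio of FIB2 to FIB1 in TPM was 0.555 to 0.655 in the 17 °C libraries at 15 min to 4 h. It was 0.545 and 0.541 at 15 min after the move, 0.316 and 0.389 at 1 h and 0.345 and 0.436 at 4 h. The log2 ratio fell from -0.77 ± 0.09 to -1.25 ± 0.33 (SD, n = 6 per temperature), a difference of -0.48 (exact permutation test within each time, two-sided, p = 0.00926, the smallest it can give, 0.0185 adjusted over 4 pairs). It was lower at 3 of 3 times and in 6 of 6 same-numbered pairs. Permuting within time and number as a replicate block gave p = 0.0312 (exact), the smallest possible, and 0.0625 after adjustment. The pair was examined with the FIB2 levels known.

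The other pairs moved less. The ratio of NOP58 AT5G27120 to AT3G05060 was lower by 0.17 on the log2 scale at 27 °C (-0.05 ± 0.20 and -0.22 ± 0.14, SD, n = 6; exact permutation p = 0.00926, adjusted 0.0185). On counts per kilobase it was -0.17 with an adjusted p of 0.0741 (exact permutation), and 0.0625 under the replicate block. NOP56-like over NOP56 differed by -0.12 (exact permutation p = 0.296, adjusted 0.395), and NUC2 over NUC1 by -0.02 (p = 0.935, exact permutation). With a pseudocount of 1 in place of 0.1, NUC2 over NUC1 turned to 0.30 and was higher at 3 of 3 times (exact permutation p = 0.0463, adjusted 0.0617), so no direction holds for this pair. With 6 libraries per temperature these tests do not show that those pairs stayed alike, and NUC2 rests on 4 to 44 counts here.

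**Figure D3:**
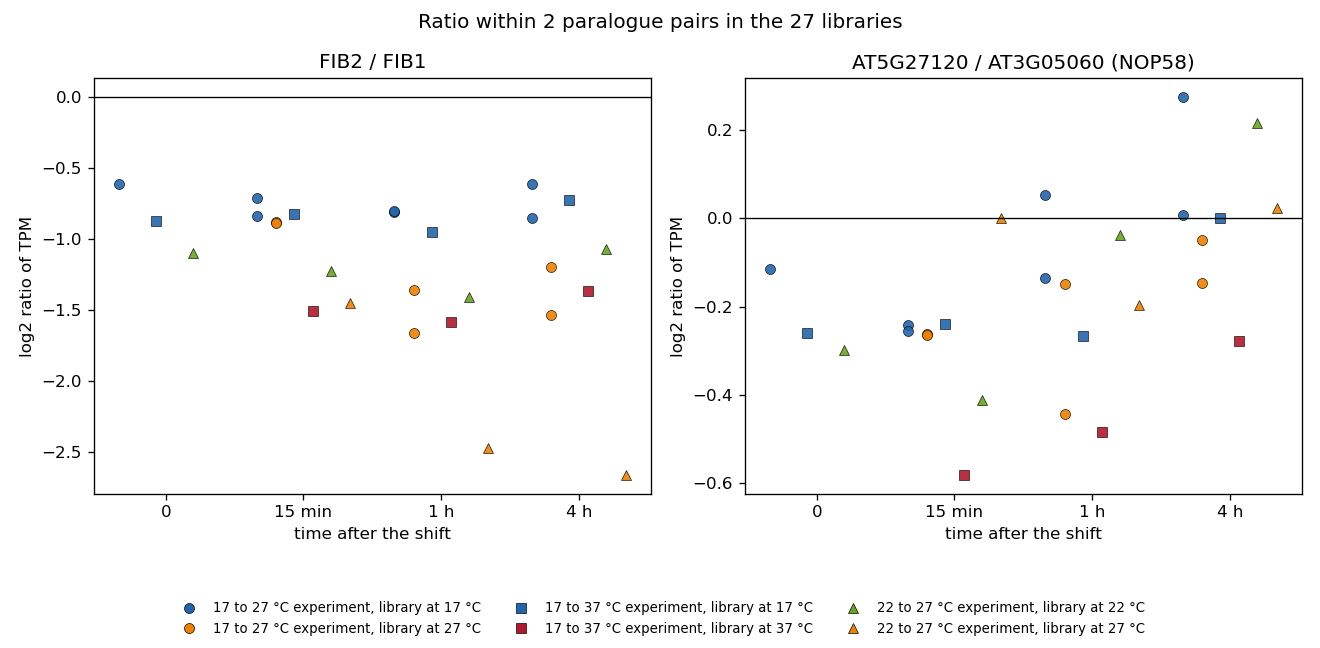
Log2 ratio of TPM (y axis) of FIB2 to FIB1 and of NOP58 AT5G27120 to NOP58 AT3G05060 in each of the 27 libraries by time after the shift (x axis). In 9 of 9 combinations of experiment and time the mean ratio of FIB2 to FIB1 is lower in the shifted libraries, down to -2.66 at 4 h after the move from 22 °C to 27 °C.

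Among the nucleolins, NUC1 (chromosome 1, from 18098095 to 18101623) was at 197 and 204 TPM at 15 min, 170 and 199 TPM at 1 h and 216 and 249 TPM at 4 h at 17 °C. At 27 °C it was at 156 and 199, 74.0 and 141, and 180 and 174 TPM. Both 27 °C libraries lay below both controls at 1 h and 4 h. Its log2 fold change was -0.36 ± 0.13 over 3 times (edgeR adjusted p = 0.171), and -0.61 ± 0.17 at 1 h (edgeR adjusted p = 0.137). Without the 27 °C library of replicate 2 at 1 h it was -0.78 at 1 h, a value that rests on replicate 1 at 27 °C. NUC2 (chromosome 3, from 6404083 to 6407822) was at -0.44 ± 0.29 over 3 times (edgeR adjusted p = 0.458).

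Of the box C/D core, NOP58 AT5G27120 (chromosome 5, from 9540925 to 9543871) ran from 65.6 to 73.1 TPM, median 72.1, at 17 °C and from 29.8 to 68.2 TPM, median 51.3, at 27 °C. Its log2 fold change was -0.42 ± 0.11 (edgeR adjusted p = 0.0781). NOP58 AT3G05060 ran from 59.5 to 87.2 TPM at 17 °C and from 33.1 to 81.9 TPM at 27 °C, a log2 fold change of -0.24 ± 0.10 (edgeR adjusted p = 0.215). NOP56, its partner in the particle, went from a median of 138 (101 to 150) to 103 TPM (63.5 to 141), at -0.28 ± 0.11 (edgeR adjusted p = 0.225). NOP56-like was at -0.41 ± 0.15 (edgeR adjusted p = 0.179). Taken over all times, the ranges at both temperatures overlap for each of these 4 genes.

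CBF5 (chromosome 3, from 21153973 to 21156009) ran from 66.5 to 102 TPM, median 81.6, at 17 °C and from 35.9 to 88.3 TPM, median 59.5, at 27 °C. Its log2 fold change was -0.36 ± 0.11 (edgeR adjusted p = 0.114). PUM23 (chromosome 1, from 27228153 to 27232999) went from a median of 27.0 (22.4 to 31.2) to 20.0 TPM (9.20 to 25.0), at -0.40 ± 0.11 (edgeR adjusted p = 0.0852). In the replicate block within each time, NOP58 AT5G27120 (-0.63, adjusted p = 0.0283, edgeR) and PUM23 (-0.64, adjusted p = 0.037, edgeR) joined FIB2 as lower at 1 h. The share of all genes called in this fit was not set beside these calls.

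By time, edgeR called 0 of 10 at 15 min (0.218% of all genes), at 1 h (0.842%) and at 4 h (0.0324%), with 0, 8 and 4 at an unadjusted p under 0.05 (15.9% of all genes at 1 h and 12.2% at 4 h). DESeq2 called 0, 4 and 3 (3.9% of all genes at 1 h and 1.74% at 4 h). These fits held no term for the pairing of libraries by number. The change of the 27 °C effect from 1 h to 4 h had 0 of 10 past the edgeR test (0% of all genes), 0 at an unadjusted p under 0.05 and 0 with DESeq2. At 15 min the log2 fold changes were from -0.32 (PUM23) to 0.10 (FIB1). At 1 h all 10 were negative, from -0.16 (FIB1) to -1.17 ± 0.53 (NUC2). With TMM factors all 10 were negative at 4 h as well, from -0.07 (NUC2) to -0.97 (FIB2). The value of NUC2 at 4 h turned to 0.03 with library size alone, and those of FIB1, NOP56 and NUC1 at 15 min turned negative. That scaling put the median of all genes at 0.11 at 4 h and at -0.17 at 15 min. In TPM, FIB2, NOP58 AT5G27120 and CBF5 had both 27 °C libraries below both controls at 3 of 3 times, as did 3.6% of genes with a mean count of at least 10. At 15 min alone, 7 of 10 members were below in this way, but so were 47.4% of such genes. At 1 h 8 of 10 were (23.8% of genes) and at 4 h 7 of 10 (14.1%). NUC2 went the other way in TPM at 4 h, with 0.644 and 0.655 TPM at 27 °C against 0.589 and 0.545 TPM at 17 °C.

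**Figure D4:**
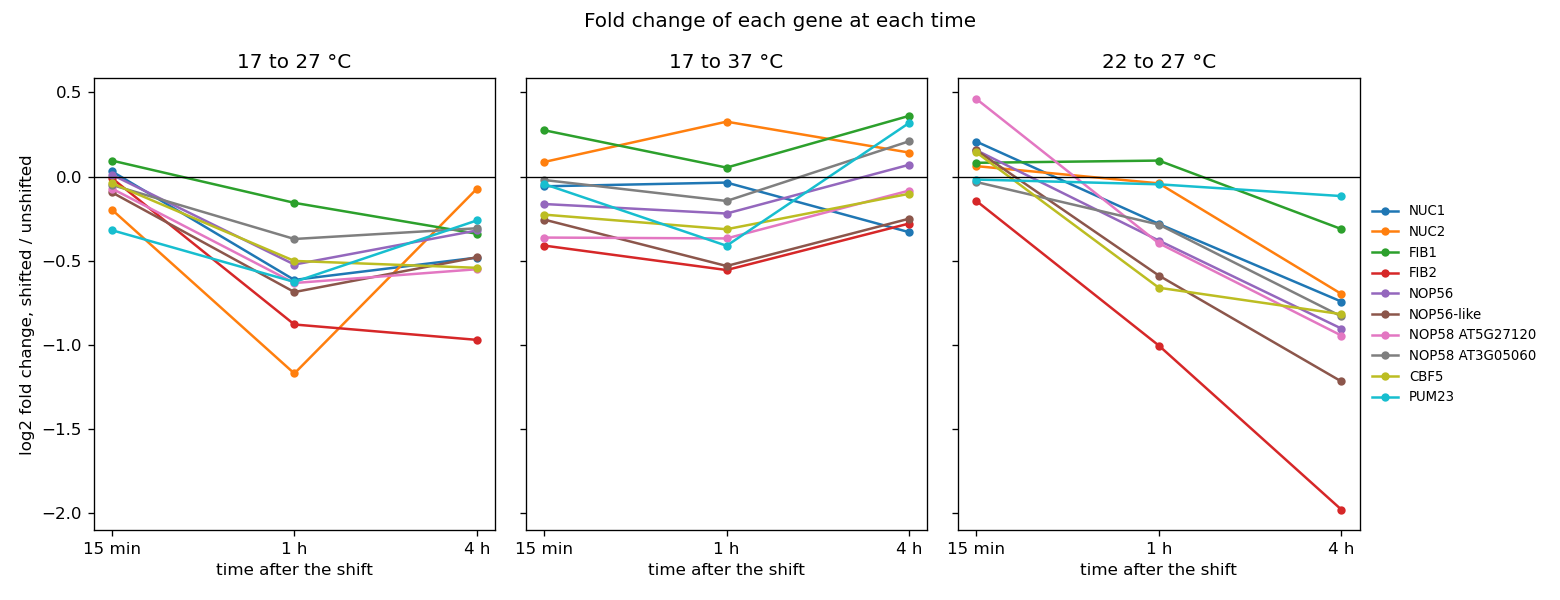
Log2 fold change of each gene (y axis) at 15 min, 1 h and 4 h (x axis) in the 3 moves, 1 line per gene, from 2 libraries per temperature at 17 to 27 °C and from 1 per temperature in the other moves. At 15 min the values for 17 to 27 °C lie between -0.32 and 0.10, and FIB2 reaches -0.97 there and -1.98 after the move from 22 °C to 27 °C at 4 h.

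The library at 27 °C, 1 h, replicate 1 had the lowest TPM of each of the 10 genes among the 12 libraries of this comparison. Their summed level was 410 TPM there, against 658 TPM in its duplicate and 824 and 885 TPM in the controls. It was also 1 of the libraries rich in chloroplast counts, and its markers of dividing cells summed to 67.2 TPM against 117 TPM in its duplicate. Without both 1 h libraries of replicate 1, the median of the 10 genes over 3 times was -0.30. Without all 1 h libraries it was -0.26. The part of chloroplast RNA in these values was not tested. Over 3 times, 0 of 6 markers of dividing cells passed the test (median -0.02), and 0 of 6 root markers did (median -0.15).

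Other genes of ribosome biogenesis, in lists drawn up with earlier results known, had lower members past the test, which 1.51% of all genes passed, in either direction, and 51.4% of all genes were negative. In the small subunit processome, which cuts and folds the precursor of the small subunit, 2 of 22 were lower and 21 were negative, with a median of -0.29. They were SWA1 (-0.63 ± 0.11, edgeR adjusted p = 0.0207) and UTP7 (-0.53 ± 0.12, edgeR adjusted p = 0.048). In large subunit assembly 3 of 20 were lower with a median of -0.29, namely RBL (-0.67), NOC3 (-0.60) and SMO4 (-0.40). In export and late maturation 2 of 7 were lower with a median of -0.23: the nucleostemin-like GTPase NSN1 (-0.64 ± 0.10, edgeR adjusted p = 0.0135) and LSG1-2 (-0.47 ± 0.09, edgeR adjusted p = 0.0271). Of the partners of box C/D and H/ACA particles 1 of 7 was lower, NAF1 (-0.47 ± 0.09, edgeR adjusted p = 0.0261), an assembly factor of H/ACA particles. UTP14 had the processome value furthest from 0 (-0.73 ± 0.25) without passing, and it was named after its value was seen. Of the genes of rRNA trimming and decay (6), RNA polymerase I and nucleolar chromatin (5) and TOR signalling and ribosomal stress (6), 0 passed. The values furthest from 0 there were RRP44A at -0.29, NRPA1, the largest subunit of polymerase I, at -0.62 ± 0.24, and S6K2 at -0.47. HDT3, of the same list as NRPA1, went the other way, at 0.59 ± 0.14 (edgeR adjusted p = 0.0525). It too was named after its value was seen. Of 18 tested cytosolic ribosomal protein genes, found by their description, 0 passed and the median was -0.01, with AT1G57540 furthest from 0 at 0.35. The search by wording matched only 25 genes, many of the acidic family, so the 18 do not stand for this class. Without the 1 h libraries 0 genes of these lists passed the test, but only 3 of all genes did, against 315 with them. Without both 1 h libraries of replicate 1 only 1 of the processome and 1 of export did. With so few genes called in all, these counts do not place the change of the lists at 1 h.

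**Figure D5:**
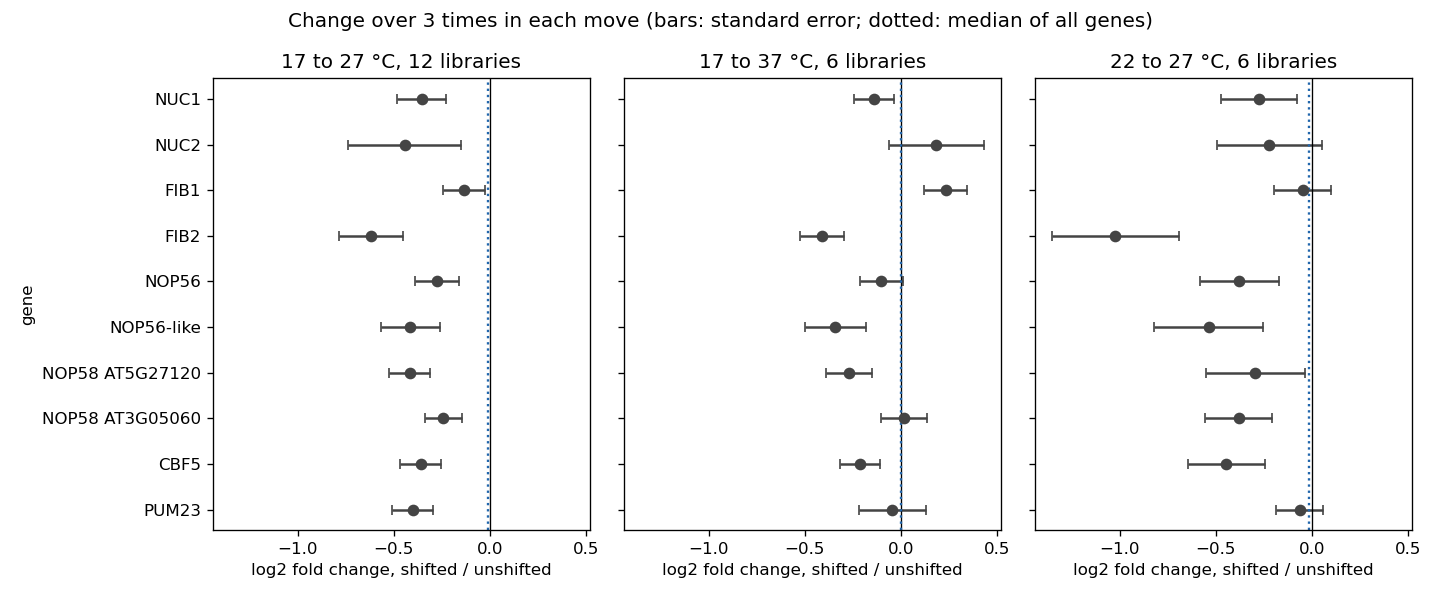
Log2 fold change over 3 times with its standard error (x axis) for each gene (y axis) in the 3 moves, with the median of all genes as a dotted line. In the moves to 27 °C all 10 points lie below 0, with FIB2 the furthest at -0.62 and -1.02, and at 37 °C FIB1 lies at 0.23.

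At 37 °C the test over 3 times called 0 of 10 (21.2% of all genes), with a median of -0.12, 7 negative values and 1 unadjusted p under 0.05 (41.3% of all genes). DESeq2 called 0 of 10 as well. FIB2 was at 96.6, 98.5 and 97.1 TPM at 17 °C at 15 min, 1 h and 4 h, and at 61.5, 51.3 and 65.7 TPM at 37 °C. Its log2 fold change was -0.41 ± 0.12 (SE, n = 3 per temperature with the times as replicates, edgeR adjusted p = 0.0588). FIB1 was at 171, 190 and 160 TPM at 17 °C and at 175, 154 and 169 TPM at 37 °C, a log2 fold change of 0.23 ± 0.11 (edgeR adjusted p = 0.179). The log2 ratio of FIB2 to FIB1 was lower at 3 of 3 times by a mean of 0.65 (exact permutation p = 0.25, the smallest that 3 against 3 within time allow). NUC1 was at 172, 182 and 231 TPM at 17 °C and at 140, 136 and 150 TPM at 37 °C, lower at each time in TPM, with a log2 fold change of -0.14 ± 0.10 (edgeR adjusted p = 0.355).

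These values depend on the scaling. TMM factors were 0.787 to 0.894 in the 37 °C libraries and 1.04 to 1.07 in their controls. With library size alone, the median of all genes was at -0.36 and all 10 members were negative, with 6 past the test, and limma on log2(TPM + 1) put 5 past it. The share of all genes past these tests was not set beside them, so the counts are no result about the members. FIB1, NUC2 and NOP58 AT3G05060 were positive with TMM, RLE and DESeq2 factors and negative with library size alone or TPM. By time 0 of 10 passed at 15 min (2.46%), 1 h (4.83%) and 4 h (15.3%), with 0 at an unadjusted p under 0.05 and 0 with DESeq2 at each. Between 15 min and 4 h the fold changes at 37 °C differed past the test for 0 of 10 (0.198% of all genes), 0 at an unadjusted p under 0.05 and 0 with DESeq2. Root markers were lower at 37 °C for 4 of 6 genes (median -2.01, summed level 97.3 to 129 TPM against 176 to 200 TPM), and their part in the members' values was not tested.

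The difference between both moves from 17 °C was positive for all 10 genes, that is, the log2 fold change at 37 °C was the higher one. The median was 0.22, 0 of 10 passed the test (15.8% of all genes) and 1 had an unadjusted p under 0.05 (31.1%). With library size alone, 7 of 10 were negative, so no direction holds across scalings. In the lists, this test with TMM put 3 of 7 genes of export and late maturation, 3 of 22 of the processome, 2 of 20 of large subunit assembly, 2 of 6 of TOR signalling and 1 of 7 particle partners higher at 37 °C than at 27 °C, and 0 lower, beside the 15.8% of all genes called in either direction. At 37 °C alone, where 21.2% of all genes passed, 1 gene of the processome was lower (UTP18, -0.44 ± 0.11, edgeR adjusted p = 0.0494). The RNA helicase gene PRH75 (0.49 ± 0.12, edgeR adjusted p = 0.0408), the nucleolar histone deacetylase gene HDT3 (0.58 ± 0.11, edgeR adjusted p = 0.0272), the S6 kinase gene S6K2 (1.27 ± 0.25, edgeR adjusted p = 0.0291) and RPL18AA (0.52 ± 0.13, edgeR adjusted p = 0.0494) were higher. Of the other lists, the genes furthest from 0 were GAR1 at 0.36, LSG1-1 at 0.86 and RRP41 at 0.26, none past the test. With library size alone there were 2 lower genes in the processome, 1 in large subunit assembly, 2 in polymerase I and chromatin and 1 among ribosomal proteins, and the TOR list alone had a higher gene. These counts too stand without the share of all genes called under that scaling.

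From 22 °C to 27 °C all 10 genes were again negative over 3 times, with a median of -0.34 against -0.02 for all genes. EdgeR called 0 of 10 (0.31% of all genes), 1 had an unadjusted p under 0.05 (16.3%) and DESeq2 called 1 (1.86%), FIB2. FIB2 was at 68.9, 62.3 and 91.7 TPM at 22 °C at 15 min, 1 h and 4 h, and at 61.01, 29.2 and 24.1 TPM at 27 °C. At 4 h it rested on 621 and 158 counts. Its log2 fold change was -1.02 ± 0.33 (SE, n = 3 per temperature with the times as replicates, edgeR adjusted p = 0.225). At 4 h it was -1.98 ± 0.31, with the spread taken from the duplicated libraries of the other experiment (edgeR adjusted p = 0.145, unadjusted p = 8.11e-05). FIB1 was at 161, 166 and 192 TPM at 22 °C and at 166, 162 and 153 TPM at 27 °C, at -0.05 ± 0.15. The log2 ratio of FIB2 to FIB1 was -1.22, -1.41 and -1.07 at 22 °C and -1.45, -2.47 and -2.66 at 27 °C, lower at 3 of 3 times by a mean of 0.96 (exact permutation p = 0.25, the smallest possible). Over all 3 experiments, an analysis chosen after the data were seen, it was lower in 9 of 9 combinations by 0.70 (exact permutation p = 0.000145, the smallest possible, adjusted 0.000579).

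By time, 0 of 10 passed at 15 min (0%), 1 h (0%) and 4 h (0.018%), with 0, 2 and 7 at an unadjusted p under 0.05 (4.94% of all genes at 1 h and 11.6% at 4 h), and DESeq2 called FIB2 at 4 h (0.495% of all genes). NUC1 was at 143, 145 and 275 TPM at 22 °C and at 160, 110 and 161 TPM at 27 °C. Its highest value was in the 4 h control, and the fold change was 0.21 ± 0.26 at 15 min and -0.74 ± 0.26 at 4 h. NOP56, NOP56-like, both NOP58 genes and CBF5 lay between -0.82 and -1.22 at 4 h, PUM23 at -0.12 and FIB1 at -0.31. Without the 4 h libraries the median of the 10 over times was -0.06. Without the 15 min libraries it was -0.60 and FIB2 was lower by test (-1.49, edgeR adjusted p = 0.0437). The share of all genes called without those libraries was not set beside this call. At 4 h the markers of dividing cells summed to 49.1 TPM at 27 °C and 76.0 TPM at 22 °C (0 of 6 past the test over times, 6 negative, median -0.24), and their part was not tested. The other lists had 0 genes past the test here; the values furthest from 0 were NOC3 at -0.55, NSN1 at -0.53, SWA1 at -0.51, TOR at 0.44, HDT1 at -0.39, RRP41 at -0.32, the ribosomal protein gene AT1G57540 at 0.62 and the SNU13 gene AT4G22380 at -0.30. The move from 22 °C did not differ from that from 17 °C by test for any of the 10 (0 of 10, 0% of all genes, with 0 of 10 at an unadjusted p under 0.05, and 0 of 10 with DESeq2), with FIB2 at -0.40 ± 0.37.

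In plants that were not moved, 1 of 10 genes passed the test from 15 min to 4 h. Over the 15 unshifted libraries, with a term for experiment, NUC1 rose by 0.53 ± 0.11 from 15 min to 4 h (SE, edgeR adjusted p = 0.00413), a test that 26.5% of all genes passed. NUC1 and PUM23 had an unadjusted p under 0.05 there (2 of 10, 37.6% of all genes), and DESeq2 called NUC1 (28.4%). NUC1 was at 197, 204, 172 and 143 TPM at 15 min and at 216, 249, 231 and 275 TPM at 4 h. The 275 TPM value, from the library kept at 22 °C, is flagged below as far from its group. In the 17 to 27 °C experiment alone the rise of NUC1 was 0.35 (edgeR adjusted p = 0.263). PUM23 was at -0.27 ± 0.11 (edgeR adjusted p = 0.0978) and the rest between -0.18 and 0.26. From 0 to 15 min (1.74% of all genes) and from 15 min to 1 h (2.33%) 0 of 10 passed (1 and 0 at an unadjusted p under 0.05, with 8.93% of all genes in the first, and 0 and 0 with DESeq2).

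Growth temperature and experiment cannot be told apart, so levels at 17 °C and 22 °C are set side by side without a test. NUC2 was at 0.399 to 1.29 TPM, median 0.735, in the 11 libraries kept at 17 °C and at 1.67 to 2.62 TPM, median 2.20, in the 4 kept at 22 °C. NOP56-like was at 9.09 to 14.6 TPM, median 11.99, at 17 °C and at 4.78 to 8.56 TPM, median 7.25, at 22 °C. These 2 of 10 did not overlap, as did not 2.76% of genes with a mean count of at least 10. Between both experiments at 17 °C NUC2 ranged unequally, at 0.399 to 0.987 TPM in one and 0.929 to 1.29 TPM in the other. The other 8 overlapped.

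Across the 27 libraries, which differ in depth and experiment, the levels of most members followed each other. On log2 CPM, FIB2 and NOP56 had a Pearson r of 0.93 and CBF5 and NOP58 AT3G05060 one of 0.93. FIB2 had the highest median r to the other 9 (0.82), and FIB1 (0.31) and NUC2 (0.02) the lowest. The genes most like NUC1 were PRMT11, an arginine methyltransferase gene (r = 0.85), AT4G38890 (0.83), ATMPK8 (0.82), SUVH1 (0.80), AT3G07195 (0.80), PRMT4B (0.79), NOP58 AT5G27120 (0.78), UTP7 (0.77), AT4G35380 (0.76) and AT1G07705 (0.76). Of these 10, 0 were among the 10 most like NUC1 in the 13 libraries of the 17 to 27 °C experiment alone.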

How the data were processed

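RNA of whole seedlings was sequenced as paired reads of 100 bases, per the labels. The submitters' processing notes name FastQC, Trimmomatic, TopHat, Picard and TAIR10. For tool versions, read counter and strand setting: not given in the sources used here. The same holds for which of the 2 kits and 2 centres made which library. The deposited raw count of each gene entered the tests, and TPM values made by the authors gave the levels. The deposited FPKM values, rescaled, equal those TPM values within 5.09e-11. Groups came from the labels, and the 0 min library of the 17 to 27 °C experiment carries conflicting replicate numbers.

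Counts were tested with edgeR 4.0.16 (R 4.3.3), with its filter on low counts, TMM factors, robust quasi-likelihood F tests and Benjamini-Hochberg adjustment over all genes at 0.05. Fits over 3 times held a term for each time. Fits at single times without duplicates took their spread from the 6 duplicated groups. Differences between same-numbered libraries correlated (deviations from group means, r of 0.41, 0.55 and 0.45 at 15 min, 1 h and 4 h), so the numbers were taken to pair them. The main fits and the main permutation test held no term for this pairing. Among the tests, it entered the replicate blocks alone. Ratios within pairs used TPM plus 0.1. Alternatives used DESeq2 1.42.0, limma 3.58.1 on log2(TPM + 1), other scalings, no filter, replicate blocks and libraries left out. The edgeR steps were tested on simulated data. Members and lists were chosen with earlier results of these data known. Named were all members, up to 4 genes per list past the test with the largest change or else the one furthest from 0, the 10 genes most like NUC1 and 3 heat genes.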

Additional observations from a re-analysis of the deposited data

Results flagged for a closer look

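Among 56 sets of values, each a gene's level or a pair's ratio in 1 group of libraries, 4 held a library far from the others, and chance flags about 5% of sets. The same libraries enter several sets. NOP58 AT5G27120 was at 89.2 TPM in the 0 min library of the 17 to 27 °C experiment, the highest of 7 at 17 °C, with the next at 73.1 TPM. NUC1 was at 275 TPM in the 22 °C library at 4 h, the highest of 4, with the next at 165 TPM. NUC2 was at 0.0732 TPM (4 counts) in the 27 °C library of replicate 1 at 1 h, the lowest of 6, with the next at 0.444 TPM. The log2 ratio of NOP58 AT5G27120 to AT3G05060 was 0.0018 in the 17 °C library of the 37 °C experiment at 4 h, the highest of 4, with the next at -0.24.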

How the results depend on the processing

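No member was past the main edgeR test in any move. That test ignored the pairing of libraries, and the count depends on the tool, the scaling and the pairing. DESeq2 put 4 members lower over 3 times at 27 °C, 4 at 1 h and 3 at 4 h, and 1 from 22 °C both over times and at 4 h. The replicate block put 1 lower at 1 h, and the block within each time 3 at 1 h and 1 at 4 h. No other call of a member changed under the blocks, and the share of all genes called there was not set beside these counts. With 1 library left out, 0 to 2 passed at 1 h (2 without the 27 °C replicate 2), and the median of the members ran from -0.70 to -0.42 at 1 h (-0.42 without the 27 °C replicate 1). Without the 15 min libraries 1 member passed from 17 °C to 27 °C (median -0.54) and 1 from 22 °C (median -0.60). The median was -0.26 without the 1 h libraries, and -0.062 from 22 °C without 4 h. At 37 °C 1 passed without 4 h, FIB2 (-0.49, edgeR adjusted p = 0.0484). The share of all genes called with a library or a time left out was not set beside these counts of members. At 1 h the number of all genes called also changed with the library left out. The 0 to 2 members there are thus no result about the members. Library size alone, added after the data were seen, and limma put 6 and 5 lower at 37 °C, counts without the share of all genes beside them. Their medians of the members were -0.48 and -0.42. By time these medians were -0.37 at 15 min (library size), -0.66 and -0.64 at 1 h and -0.41 and -0.31 at 4 h. The difference of 37 °C from 27 °C had medians of -0.098 and 0.0039, and that of 4 h from 15 min at 27 °C -0.16 and -0.16, and of 4 h from 1 h 0.38 with limma. In unshifted plants 0 passed in the 17 to 27 °C experiment alone, and the median was 0.21 without it. Of the 10 genes most like NUC1, 0 were shared with that experiment alone.

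For FIB2 over FIB1, 1 replicate number at a time gave -0.52 to -0.44, the block -0.48 (exact permutation, adjusted p = 0.0625), the 37 °C experiment -0.65 and that from 22 °C -0.96; with 3 libraries a temperature the exact permutation p cannot go below 0.25. For the NOP58 pair these were -0.18 to -0.16, -0.17 (0.0625), -0.28 and 0.021, a turned sign, with -0.17 on counts per kilobase and -0.14 over all experiments (0.107). The NOP56 pair passed over all experiments (-0.18, exact permutation, adjusted p = 0.0295). The experiments alone and together were added after the data were seen. The cause of these changes was not tested. Counts of all genes past the test at 27 °C over times ran from 3 (without the 1 h libraries) to 1180 (DESeq2), against 315. Depth limits NUC2, with at most 62 counts.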
